A study of Mus musculus with 15 samples.

Results

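Among the transcripts measured in cultured white adipocytes, 9 genes encode the enzymes of the pentose phosphate pathway and its closest NADPH-producing partners. The genes were G6pdx, Pgls, Pgd, Rpia, Rpe, Tkt, Taldo1, H6pd and Idh1, picked out by name from the 18804 genes of the count table. All 9 were among the 14293 genes with enough counts to be tested. RNA came from adipocytes differentiated from mesenchymal stem cells of C57BL/6J mice. The methods name the ear as the source of the stem cells. All cells received methylisobutylxanthine, dexamethasone, insulin and troglitazone at the start of adipogenesis, insulin and troglitazone again at the next feeding, and serum without these agents from day 4 on. Troglitazone is named in the labels, while a passage of the methods names rosiglitazone. All cells were harvested 16 days after induction. The day 0 group (n = 5 libraries) stayed at 37°C throughout. The day 1 group (n = 5) was moved to 31°C on day 15, so that it had spent 1 day there, and the day 12 group (n = 5) was moved on day 4 and spent 12 days there. The methods describe the mice as wild type, and no group carried a transgene. The sources do not say whether replicate libraries stand for different mice or different dishes, so p-values cover the spread between libraries, which may be technical. The comparisons bear on whether cool temperature alters the routes by which adipocytes handle glucose, among them its entry into the pentose shunt.

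The pentose phosphate pathway branches from glycolysis at glucose 6-phosphate. Its oxidative arm, run by glucose 6-phosphate dehydrogenase, 6-phosphogluconolactonase and 6-phosphogluconate dehydrogenase, reduces NADP to NADPH and releases carbon dioxide. Its reversible arm interconverts pentose phosphates (ribose 5-phosphate isomerase and ribulose phosphate 3-epimerase) and returns their carbon to glycolysis (transketolase and transaldolase). Adipocytes use NADPH for fatty acid synthesis and for reducing glutathione and thioredoxin, and cytosolic isocitrate dehydrogenase and malic enzyme are further sources of it. Hexose 6-phosphate dehydrogenase runs the oxidative steps inside the endoplasmic reticulum, where it feeds NADPH to 11β-hydroxysteroid dehydrogenase type 1.

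The upstream sequences of 4 genes are shown: those of Pgd, Rpia and Rpe, whose levels passed both limits described below, and that of G6pdx, which opens the oxidative arm. Each is the 250 bases before the start site given by RefSeq on GRCm38.p6, written 5′ to 3′ on the gene's strand. Capitals mark letters that matched any of 6 motifs searched on both strands.
G6pdx, chrX:74428881-74429130, minus strand: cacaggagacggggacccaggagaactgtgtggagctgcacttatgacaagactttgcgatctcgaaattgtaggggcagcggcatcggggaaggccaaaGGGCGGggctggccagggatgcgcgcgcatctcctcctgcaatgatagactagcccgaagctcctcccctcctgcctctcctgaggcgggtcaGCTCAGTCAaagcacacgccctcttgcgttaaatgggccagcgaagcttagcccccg
Pgd, chr4:149166706-149166955, minus strand: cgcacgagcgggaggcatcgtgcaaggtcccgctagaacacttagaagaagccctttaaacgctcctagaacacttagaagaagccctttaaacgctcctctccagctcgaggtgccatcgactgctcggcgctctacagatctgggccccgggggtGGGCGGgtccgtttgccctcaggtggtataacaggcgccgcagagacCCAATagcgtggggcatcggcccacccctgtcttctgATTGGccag
Rpia, chr6:70792176-70792425, minus strand: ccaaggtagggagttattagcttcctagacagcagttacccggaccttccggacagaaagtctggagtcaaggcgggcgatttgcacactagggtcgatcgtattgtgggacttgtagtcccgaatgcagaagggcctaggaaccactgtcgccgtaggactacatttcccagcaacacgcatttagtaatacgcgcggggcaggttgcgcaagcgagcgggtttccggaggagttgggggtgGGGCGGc
Rpe, chr1:66700581-66700830, plus strand: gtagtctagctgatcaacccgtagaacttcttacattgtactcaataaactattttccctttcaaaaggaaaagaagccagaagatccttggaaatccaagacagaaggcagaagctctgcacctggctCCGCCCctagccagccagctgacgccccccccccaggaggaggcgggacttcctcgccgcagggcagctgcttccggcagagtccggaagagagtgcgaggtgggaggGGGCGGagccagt
The search window ran 50 bases beyond each start site and covered every RefSeq start of the 9 genes. The core of the antioxidant response element, TGACNNNGC, to which the oxidative stress factor NRF2 is known to bind, occurred at any start site of 2 of 9 genes, against 13.99% of all 27025 genes and 12.39% of all 32851 promoters. In G6pdx it was read as GCTCAGTCA at position -57 from the start site. In Pgd it was absent from the window above and was read as TGACATTGC at position 4 of a second, downstream start site. The GC box GGGCGG was found for 8 of 9 genes (38.2% of all genes, counted the same way) and CCAAT for 5 of 9 (41.06%). No member matched TATAAA (15.67% of all genes), the E-box CACGTG (8.093%) or the sterol regulatory element TCACNCCAC (1.436%). A match describes the letters only and says nothing about binding in these cells.

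Expression is given as CPM, the deposited read count of a gene scaled to a common library size. A gene was called changed at an adjusted p under 0.05 in edgeR's quasi-likelihood test (Benjamini-Hochberg over 14293 genes) together with a fold change over 1.5, which is 0.585 on the log2 scale. After 1 day at 31°C, 6 of the 9 genes stood at a higher level than at 37°C and 3 at a lower one, and in each of the 9 the day 0 and day 1 libraries did not overlap, beside 28.6% of all tested genes that lay wholly higher and 28.8% that lay wholly lower. Of these, 1 was called higher (Pgd) and 2 were called lower (Rpia and Rpe), where 7.71% of all tested genes were called higher and 13.4% lower. By adjusted p alone all 9 passed, as did 71.5% of all tested genes. After 12 days the same signs held for each gene, 6 higher and 3 lower, again with no overlap in any of the 9, where 33% of all genes lay wholly higher and 31.7% wholly lower. At that time 0 members were called higher and 1 was called lower (Rpia), against 13% and 16.2% of all genes; by edgeR's adjusted p alone all 9 passed, against 76.6%. The median log2 fold change of the 9 genes was 0.38 at day 1 and 0.18 at day 12, beside -0.01 and 0.01 over all genes. The 2 comparisons share the day 0 libraries, so their likeness is not independent. Between the 2 exposures, 1 member was called lower at day 12 than at day 1 (Pgd) and 0 were called higher, against 8.53% and 10.6% of all genes. By adjusted p alone 4 members were lower at day 12 than at day 1 (32.8% of all genes), and these 4 were also those whose libraries lay wholly lower (25.9%). The median log2 difference from day 1 to day 12 was -0.07 for the members and 0.01 over all genes.

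**Figure D1:**
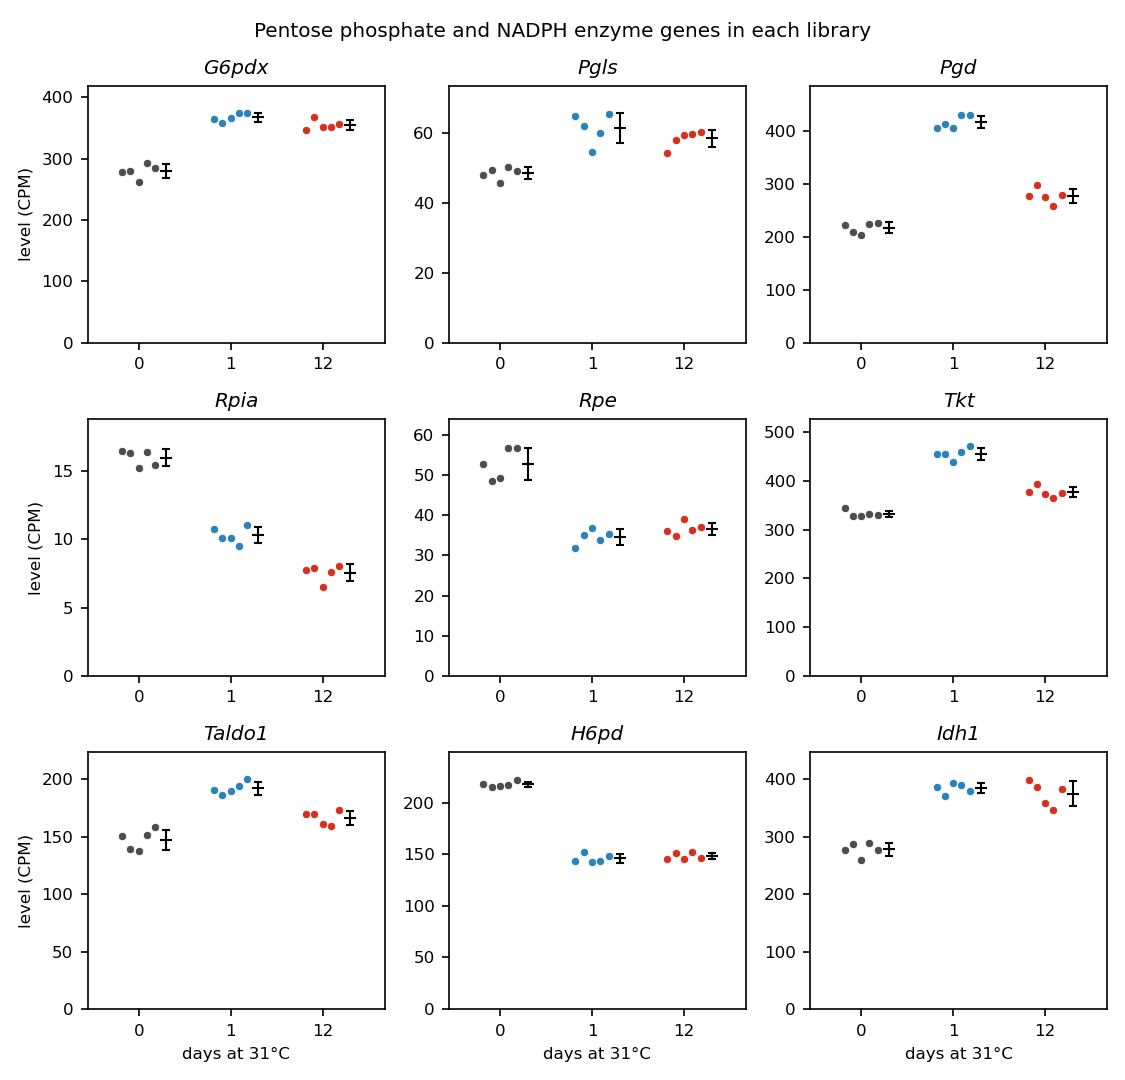
Level of each of the 9 genes in each library, in CPM, against days at 31°C. Each point is a library, and the bar beside each group is the mean ± SD (n = 5). Rpia, Rpe and H6pd lie lower in both groups at 31°C than at 37°C and the other 6 genes lie higher. The largest rise at day 1 is that of Pgd.

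The oxidative arm rose unevenly. Pgd, which encodes 6-phosphogluconate dehydrogenase, the second NADPH-producing step, showed the largest rise of the 9 genes at day 1. Its level was 223, 210, 204, 225 and 226 CPM in the 5 day 0 libraries, 407, 413, 407, 430 and 430 CPM at day 1, and 277, 298, 277, 259 and 280 CPM at day 12. The 3 groups do not overlap, and day 12 lies between the other two. At day 1 Pgd was 1.92-fold higher than at day 0 (log2 fold change 0.94 ± 0.035 SE, adjusted p = 3.86e-17), and at day 12 the log2 fold change was 0.35 ± 0.035 (adjusted p = 1.63e-09). The direct comparison of day 12 with day 1 gave a log2 difference of -0.59 ± 0.034 (adjusted p = 2.68e-13), a call that lay at the fold limit. The difference kept its sign and an adjusted p of at most 3.66e-10 under all 25 alternatives run, but its size fell under the limit in 11 of them, with the smallest at -0.41 when libraries were scaled by total counts. Pgd lies on chromosome 4 (149149991 to 149166771, minus strand, GRCm38), and no other annotated gene overlaps its exons.

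G6pdx, on chromosome X (74409483 to 74429194, minus strand), encodes the cytosolic dehydrogenase that commits glucose 6-phosphate to the pathway. Its levels were 279, 280, 262, 293 and 285 CPM at day 0, 364, 358, 367, 375 and 374 CPM at day 1, and 346, 367, 351, 352 and 356 CPM at day 12. Every library at 31°C lay above every library at 37°C, while the day 1 and day 12 libraries overlap. Day 1 differed from day 0 by 0.39 ± 0.028 on the log2 scale (adjusted p = 7.59e-12), and day 12 by 0.34 ± 0.028 (adjusted p = 7.05e-11), past the test's threshold but under the fold limit. From day 1 to day 12 the log2 difference was -0.05 ± 0.028 (adjusted p = 0.105), and it was 0.12 when libraries were scaled by total counts. Of its exon bases 13.6% lie in Ikbkg on the opposite strand, and since the strand setting of the counting was not stated, reads there cannot be told apart. Ikbkg had means of 80.9, 94.1 and 68.0 CPM at days 0, 1 and 12. G6pd2, a retrogene copy of G6pdx, had at most 13 counts in any library.

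Pgls, on chromosome 8 (71592176 to 71601092, plus strand), encodes the lactonase between the dehydrogenases. The day 0 libraries held 45.8 to 50.2 CPM, the day 1 libraries 54.7 to 65.5 CPM and the day 12 libraries 54.4 to 60.5 CPM, so that the groups at 31°C overlap each other and neither overlaps day 0. Against day 0 the log2 fold change was 0.34 ± 0.042 after 1 day (adjusted p = 1.21e-07) and 0.27 ± 0.042 after 12 days (adjusted p = 3.61e-06), under the fold limit both times. Of its exon bases 20.6% lie in Fam129c on the same strand, which had means of 1.81, 0.583 and 0.879 CPM.

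The uneven rise shows in ratios of counts within a library, which do not depend on how libraries are scaled. Pgd had 0.752 to 0.800 counts per G6pdx count at day 0, 1.11 to 1.16 at day 1 and 0.737 to 0.810 at day 12. The day 1 libraries stand apart from both other groups, and the day 12 libraries span the day 0 range. These ratios are of counts, not of transcripts, since the genes differ in length, and no test was run on them.

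**Figure D2:**
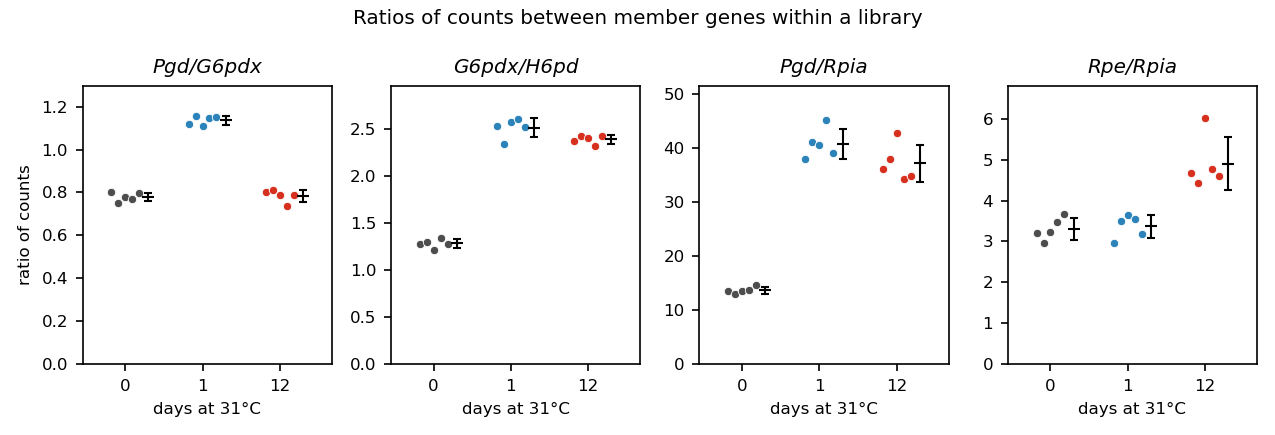
Ratios of counts between pairs of genes within each library against days at 31°C. Points are libraries and bars the mean ± SD (n = 5). Pgd per G6pdx is raised at day 1 only, G6pdx per H6pd and Pgd per Rpia are higher in both groups at 31°C, and Rpe per Rpia is higher at day 12 only.

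Transcripts of the isomerase and the epimerase, which share ribulose 5-phosphate as a substrate, fell. Rpia encodes ribose 5-phosphate isomerase, which makes the sugar used for nucleotides, and lies on chromosome 6 (70765720 to 70792232, minus strand) with no overlapping gene. Rpia levels were 16.5, 16.3, 15.2, 16.4 and 15.4 CPM at day 0, 10.7, 10.1, 10.1, 9.54 and 11.1 CPM at day 1, and 7.72, 7.87, 6.47, 7.58 and 8.05 CPM at day 12. The 3 groups step down without overlap. Rpia was called lower both after 1 day (log2 fold change -0.63 ± 0.057, adjusted p = 5.11e-10) and after 12 days (-1.08 ± 0.058, adjusted p = 2.06e-14). From day 1 to day 12 the level fell by a further 0.45 on the log2 scale (SE 0.059, adjusted p = 4.02e-07), which passed the test but not the fold limit. Rpia was the least abundant of the 9 genes, with 532 to 2076 counts per library.

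Rpe encodes ribulose phosphate 3-epimerase, which sends ribulose 5-phosphate toward transketolase, and lies on chromosome 1 (66700831 to 66719805, plus strand). Its level was 52.7, 48.5, 49.2, 56.9 and 56.8 CPM at day 0, 31.8, 35.2, 36.9, 33.9 and 35.2 CPM at day 1, and 36.1, 34.9, 39.0, 36.3 and 37.1 CPM at day 12. Both groups at 31°C lie below all day 0 libraries and overlap each other. Rpe was called lower at day 1 (log2 fold change -0.61 ± 0.046, adjusted p = 2.56e-11), and at day 12 its log2 fold change of -0.53 ± 0.046 (adjusted p = 2.43e-10) stayed under the fold limit. The day 1 call ended, at log2 fold changes of -0.58, when day 0 replicate 4, day 0 replicate 5 or day 1 replicate 1 was left out or when only the larger of the 2 series of library numbers was used. The log2 difference from day 1 to day 12 was 0.08 ± 0.047 (adjusted p = 0.121). With libraries scaled by total counts it was 0.26, past the test's threshold but under the fold limit. Of its exon bases 17.9% lie in Kansl1l on the opposite strand, listed in the table as 1110028C15Rik, which had means of 19.7, 10.7 and 16.1 CPM at days 0, 1 and 12.

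The 2 genes did not keep step with each other. Rpe counts per Rpia count were 2.97 to 3.68 at day 0, 2.96 to 3.66 at day 1 and 4.44 to 6.03 at day 12, so that the day 12 libraries lie above all others, with replicate 3 the highest. Against Pgd the contrast was wider, with 12.9 to 14.7 Pgd counts per Rpia count at day 0, 37.9 to 45.1 at day 1 and 34.2 to 42.7 at day 12.

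The 2 sugar-transferring enzymes rose, more at day 1 than at day 12. Tkt, which encodes transketolase, had 329 to 344 CPM in the day 0 libraries, 438 to 472 CPM in those of day 1 and 365 to 393 CPM in those of day 12, so that no 2 groups overlap. Its log2 fold change was 0.46 ± 0.026 after 1 day (adjusted p = 1.41e-13) and 0.18 ± 0.026 after 12 days (adjusted p = 1.10e-06). Taldo1, which encodes transaldolase, had 138 to 158 CPM, 186 to 200 CPM and 159 to 173 CPM in the same order, also without overlap. Its log2 fold change was 0.38 ± 0.035 after 1 day (adjusted p = 8.59e-10) and 0.17 ± 0.035 after 12 days (adjusted p = 9.87e-05). All of these lie under the fold limit. From day 1 to day 12, Tkt fell by 0.27 and Taldo1 by 0.21 on the log2 scale (adjusted p = 1.88e-09 and 1.58e-05), under the fold limit. With libraries scaled by total counts the Taldo1 difference was -0.03 (adjusted p = 0.399). On that scale the day 1 and day 12 libraries of each gene overlapped, and the log2 fold change at day 12 was 0.37 for both genes. Tkt counts per Taldo1 count were 2.09 to 2.39, 2.31 to 2.45 and 2.17 to 2.32 at days 0, 1 and 12, and all 3 groups overlap. Tkt lies on chromosome 14 (30548359 to 30574720, plus strand) and Taldo1 on chromosome 7 (141392199 to 141402968, plus strand).

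H6pd, the gene of the endoplasmic reticulum counterpart of G6pdx and Pgls, went the other way from both. Its level was 218, 215, 216, 218 and 222 CPM at day 0, 144, 153, 143, 144 and 148 CPM at day 1, and 146, 151, 146, 152 and 147 CPM at day 12. The libraries of both 31°C groups share a range far below day 0. Against day 0 the log2 fold change was -0.58 ± 0.025 after 1 day (adjusted p = 1.01e-15) and -0.55 ± 0.025 after 12 days (adjusted p = 9.23e-16), just inside the fold limit, so H6pd passed the test at both times but was not called. At day 1 it was called without day 1 replicate 2 (-0.59), with only genes of at least 10 CPM in the fit (-0.62) and with scaling to reference genes (-0.67). From day 1 to day 12 the log2 difference was 0.02 ± 0.025 (adjusted p = 0.486). With libraries scaled by total counts it was 0.19, past the test's threshold but under the fold limit. G6pdx counts per H6pd count were 1.21 to 1.35 at day 0, 2.34 to 2.61 at day 1 and 2.32 to 2.43 at day 12. H6pd lies on chromosome 4 (149979475 to 150009023, minus strand) with no overlapping gene.

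Idh1, on chromosome 1 (65158616 to 65186500, minus strand), encodes the cytosolic and peroxisomal isocitrate dehydrogenase, which makes NADPH outside the pentose shunt. Its level was 277, 288, 260, 289 and 277 CPM at day 0, 387, 371, 394, 389 and 380 CPM at day 1, and 399, 387, 358, 346 and 383 CPM at day 12. Every library at 31°C lay above every library at 37°C, and the 31°C groups overlap. The rise was 0.47 ± 0.036 on the log2 scale after 1 day (adjusted p = 2.42e-11) and 0.43 ± 0.036 after 12 days (adjusted p = 7.39e-11), the largest rise among the members at day 12 and still under the fold limit. With libraries scaled by total counts it was called at day 12 (0.62). The log2 difference from day 1 to day 12 was -0.04 ± 0.035 (adjusted p = 0.369), and it was 0.14 with libraries scaled by total counts.

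**Figure D3:**
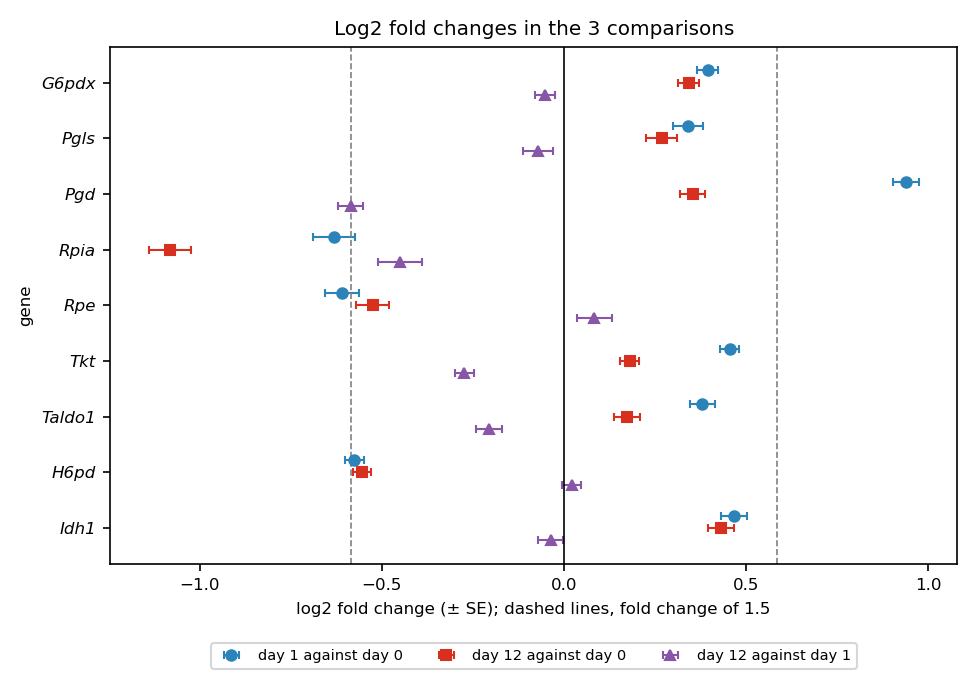
Log2 fold change ± SE of each gene in the 3 comparisons, with dashed lines at a fold change of 1.5. Pgd at day 1 lies beyond the upper line at 0.94. Beyond the lower line lie Rpia at days 1 and 12, Rpe at day 1 (-0.61) and, barely, Pgd at day 12 against day 1. The day 12 against day 1 values lie between -0.59 and 0.08.

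To compare genes with each other, CPM was divided by the length in kilobases of the principal transcript (CPM per kilobase). At day 0 Idh1 (121 ± 5.12 SD CPM per kilobase, n = 5) and Taldo1 (120 ± 7.08) led and did not differ beyond their spread. G6pdx (105 ± 4.25), Tkt (103 ± 1.96) and Pgd (98.2 ± 4.50) followed, each overlapping the next. Below them came Pgls (54.4 ± 1.95), H6pd (47.7 ± 0.571), Rpe (19.6 ± 1.48) and Rpia (8.73 ± 0.328), none overlapping its neighbour. At day 1 Pgd moved from the fifth place to the first (188 ± 5.35), above Idh1 (167 ± 3.94) without overlap. At day 12 Idh1 led again (163 ± 9.46), and Taldo1 (135 ± 4.90), G6pdx (134 ± 3.01), Pgd (125 ± 6.11) and Tkt (117 ± 3.25) each overlapped the next. By these lengths the 4 lowest genes kept their order in all 3 groups. The order rests on the transcript length used: with the merged exons of all transcripts Pgd held rank 6 at day 0, 4 at day 1 and 5 at day 12, Idh1 led in every group, Rpia stayed last, and at day 0 H6pd, at rank 5, stood above Rpe at 7 and Pgls at 8.

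Summed over the 9 genes on this per-kilobase scale, the 3 oxidative enzymes made up 38.0% ± 0.305 (SD, n = 5) at day 0, 43.4% ± 0.381 at day 1 and 41.1% ± 0.774 at day 12. Rpia and Rpe together made up 4.18% ± 0.112, 2.03% ± 0.0889 and 2.25% ± 0.0856. H6pd made up 7.03% ± 0.200, 3.51% ± 0.122 and 4.11% ± 0.150. These 3 shares did not overlap between day 0 and either group at 31°C. Tkt and Taldo1 held 32.9% ± 0.604, 32.7% ± 0.245 and 32.0% ± 0.145, and Idh1 17.8% ± 0.529, 18.3% ± 0.566 and 20.6% ± 0.788. With merged exon lengths, a choice made after seeing the data, the oxidative share was 33.3%, 37.8% and 36.3%, and that of Rpia and Rpe 4.83%, 2.46% and 2.76%. Summed without regard to length, the 9 genes reached 1591 ± 45.1 CPM at day 0, 2071 ± 33.7 CPM at day 1 and 1802 ± 49.9 CPM at day 12. The step from day 1 to day 12 depends on the scaling. As a share of total counts the libraries overlapped, at 0.197 to 0.205% at day 1 and 0.189 to 0.202% at day 12.

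**Figure D4:**
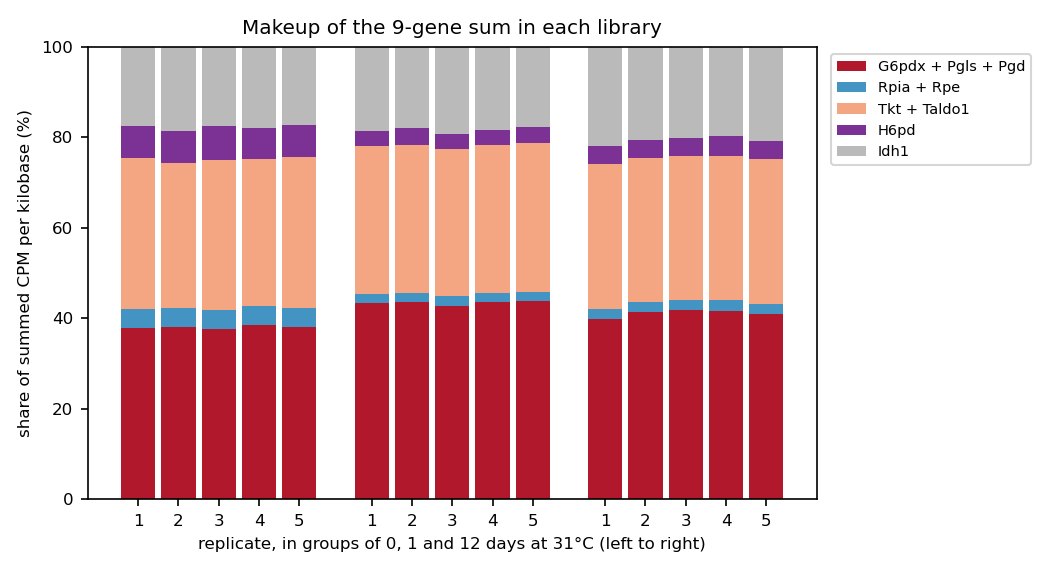
Share of each role in the summed CPM per kilobase of the 9 genes, in percent, for each library (bars 1 to 5 within the groups of 0, 1 and 12 days at 31°C). The oxidative share is 37.7 to 38.5% at day 0, 42.8 to 43.7% at day 1 and 39.8 to 41.7% at day 12, while the shares of Rpia with Rpe and of H6pd are smaller at 31°C.

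The other sugar phosphate and ribose enzymes moved in both directions. Of 16 listed genes 15 were in the table and 12 were tested. Past both limits, 1 rose and 2 fell at day 1, against 2 that rose and 4 that fell at day 12. Among all tested genes 7.71% rose and 13.4% fell at day 1, and 13% and 16.2% at day 12. The day 1 counts are close to these shares. Prps1, which makes phosphoribosyl pyrophosphate from ribose 5-phosphate, had means of 98.8, 93.3 and 44.9 CPM at days 0, 1 and 12, with log2 fold changes of -0.08 at day 1 and -1.14 at day 12 (adjusted p = 0.0439 and 1.40e-18). Its paralog Prps2 had log2 fold changes of -0.50 and -0.85 and was called lower at day 12. Dera, deoxyribose phosphate aldolase, rose by 0.86 and 1.05 on the log2 scale from 7.76 CPM at day 0 and was called at both times. The list's median log2 fold change was 0.02 at day 1 and 0.19 at day 12, beside -0.01 and 0.01 over all genes.

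Other genes listed with the enzymes that make NADPH or NADP moved in both directions. Of 15 listed genes 13 were tested, with median log2 fold changes of -0.11 and 0.12. Past both limits, 0 rose and 2 fell at day 1, against 2 that rose and 2 that fell at day 12. These counts are close to the shares over all tested genes, 7.71% higher and 13.4% lower at day 1 and 13% and 16.2% at day 12. Me1, cytosolic malic enzyme, had means of 323 ± 11.7, 301 ± 10.6 and 223 ± 4.65 CPM (SD, n = 5) and log2 fold changes of -0.10 and -0.53, both past the test (adjusted p = 0.00457 and 3.50e-14) and under the fold limit. Idh1 had 0.812 to 0.934 counts per Me1 count at day 0, 1.25 to 1.33 at day 1 and 1.57 to 1.79 at day 12, in 3 groups that do not overlap. The mitochondrial malic enzyme Me2 was called higher at day 12 (log2 fold change 0.95, from 13.6 to 26.3 CPM), and mitochondrial Idh2 passed the test at both times under the fold limit (0.17 and 0.42). In the folate pathway, Aldh1l1 was called lower at day 12 (-0.94), Aldh1l2 was called lower at both times (-1.32 and -0.72) and Mthfd2l was called higher at day 12 (0.79). Aldh1l2 had the widest spread of these at day 0 (19.7 ± 6.11 CPM), and its day 12 call ended without day 0 replicate 3 (-0.52). Of the exon bases of Aldh1l1 and Aldh1l2, 13.4% and 14.1% lie in other genes. Nnt, the mitochondrial transhydrogenase, which carries a known deletion in the C57BL/6J strain, had means of 13.7, 7.80 and 15.6 CPM and was called lower at day 1 (-0.81). Nadk, which makes NADP from NAD, had log2 fold changes of -0.31 and -0.21, past the test and under the fold limit.

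Genes regulated by NRF2 outside the pathway rose at day 1. Of 10 listed genes, 8 were called higher and 0 lower at day 1, against 7.71% and 13.4% of all genes. At day 12 there were 1 called higher and 2 called lower, against 13% and 16.2%. The list's median log2 fold change was 0.96 at day 1 and -0.02 at day 12. From day 1 to day 12, 6 of 10 were called lower, against 8.53% of all genes. Slc7a11, the cystine transporter, had log2 fold changes of 1.17 and 0.77 and was called at both times. Hmox1, heme oxygenase, rose by 0.97 at day 1 and fell by 0.68 on the log2 scale at day 12, and Osgin1 had 0.14 and -0.97. Nqo1, a quinone reductase chosen for mention after its values were seen, had means of 176 ± 12.1, 500 ± 19.9 and 176 ± 14.8 CPM at days 0, 1 and 12, so that its log2 fold change was 1.51 after 1 day (adjusted p = 3.85e-18) and 0.00 after 12 days (adjusted p = 0.971). At day 12 Nqo1 was near its day 0 level, while Pgd and G6pdx stayed above theirs, at log2 fold changes of 0.35 and 0.34. Pgd and G6pdx are themselves known targets of this factor and were kept out of the list. The part of NRF2 in their changes was not tested.

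Of 17 enzymes that use NADPH, 4 were called higher and 1 was called lower after 1 day, beside 7.71% and 13.4% of all genes. After 12 days 1 was called higher and 0 were called lower, beside 13% and 16.2%. Of the 4, 3 also belong to the NRF2 list (Gsr, Txnrd1 and Nqo1) and the other was Blvrb, a biliverdin reductase; they are named because they made up the count. Sqle, of sterol synthesis, was the 1 called higher at day 12, with a log2 fold change of 1.20 beside 0.47 at day 1. Hsd17b12, of fatty acid elongation, had 0.44 and 0.58 and was not called. Among 11 targets of the sterol regulatory factor SREBP, 1 rose and 0 fell past both limits at day 1, beside 7.71% and 13.4% of all genes. At day 12, 5 rose and 0 fell, beside 13% and 16.2%. The medians were -0.10 and 0.55. Scd1, the stearoyl-CoA desaturase, rose by 1.23 and 1.5 on the log2 scale.

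Most tested genes of glucose uptake and of the first steps of glycolysis fell. The list holds suppliers of glucose 6-phosphate (glucose transporters and hexokinases), enzymes that draw it toward glycolysis (Gpi1 and the phosphofructokinases) and Txnip, a restraint on uptake. Of 11 tested genes 0 rose and 6 fell past both limits at day 1 and 0 rose and 9 fell at day 12, with medians of -0.66 and -1.03. The shares over all tested genes were 7.71% higher and 13.4% lower at day 1, and 13% and 16.2% at day 12. The glucose transporter Slc2a3 had log2 fold changes of -1.08 and -1.84 from 3.82 CPM at day 0. The phosphofructokinase subunits Pfkp and Pfkl, which commit sugar to glycolysis, had -0.82 and -1.44, and -1.20 and -1.09. Gpi1, which interconverts glucose 6-phosphate and fructose 6-phosphate and was chosen for mention after its values were seen, had means of 987, 625 and 549 CPM and was called lower at both times (-0.66 and -0.85), with 11.5% of its exon bases in another gene. Of 5 tested genes listed beside H6pd for glucose 6-phosphate or glucocorticoid handling, 2 were called lower at each time. The shares over all genes were 13.4% at day 1 and 16.2% at day 12. The 2 were Slc37a2 and Hsd11b2, so that neither Slc37a4 nor Hsd11b1 was called. Hsd11b2, named because it made up the count, had means of 1.22, 0.706 and 0.633 CPM. Slc37a2, a sugar phosphate transporter, had -0.99 and -2.29, the glucose 6-phosphate transporter Slc37a4 had 0.03 and -0.32, and Hsd11b1, the dehydrogenase that uses H6pd's NADPH, had -0.10 and -0.45.

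**Figure D5:**
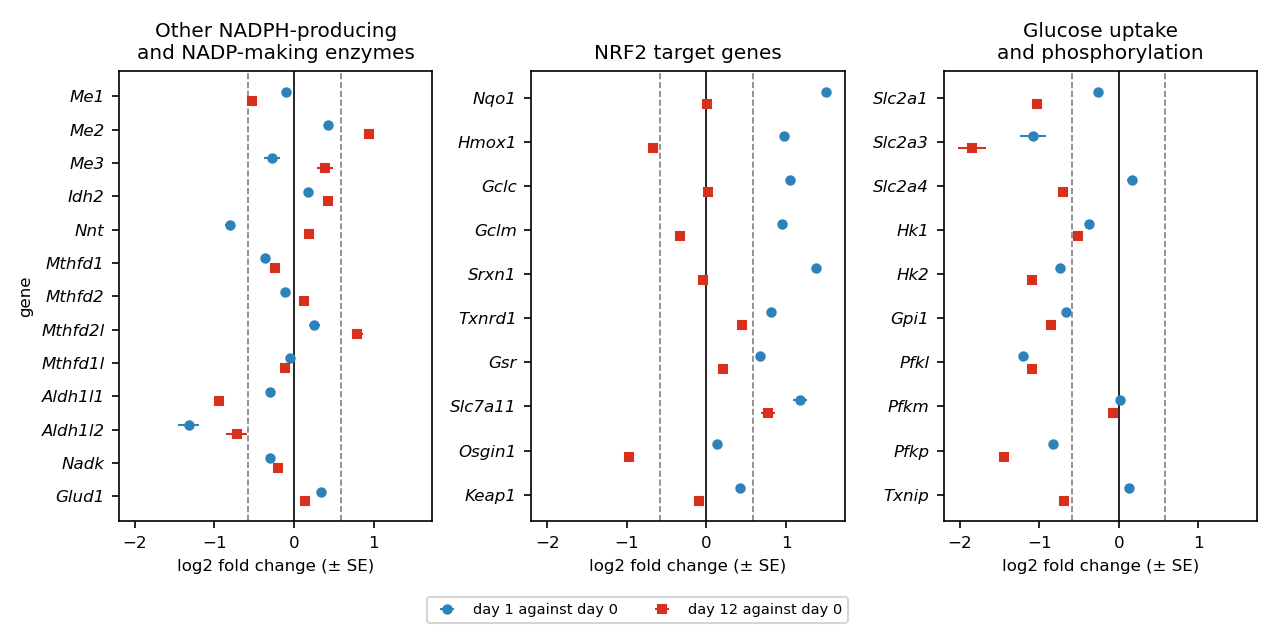
Log2 fold change ± SE against day 0 for the tested genes of at least 1 CPM in 3 lists, with dashed lines at a fold change of 1.5. Among NRF2 target genes 8 of 10 lie beyond the upper line at day 1, and among glucose uptake and phosphorylation genes 0 lie beyond it.

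Over the 15 libraries, the genes whose log2 CPM followed Rpia most closely, of 8924 genes of at least 10 CPM, were Cdo1 (Pearson's r = 0.9868), Ifngr1 (0.9862), Pgpep1 (0.9857), Maob (0.9854) and 1500009L16Rik (0.9853). Cdo1, cysteine dioxygenase, had means of 816, 523 and 361 CPM at days 0, 1 and 12, a step-down like that of Rpia. For Idh1 they were Cox16 (0.9817), Cops5 (0.9807), Psma4 (0.9801), Trmt6 (0.9797) and 0610011L14Rik (0.9788), and Trmt6 had means of 14.2, 29.5 and 29.7 CPM. These correlations describe the 3 group levels and carry no test, since the libraries share their groups and scaling.

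In bulk RNA, fewer cells of a type and less RNA per cell cannot be told apart, and markers of cell state moved with the groups. The 8 adipocyte markers were all present, with summed levels of 4386 to 5010 CPM at day 0, 5319 to 5899 at day 1 and 4685 to 5256 at day 12; Adipoq had log2 fold changes of 0.04 and -1.24, Cidec -2.62 and -1.59 and Fabp4 0.76 and 0.97. The stromal and progenitor sum was 3924 to 4312, 3512 to 3768 and 3123 to 3483 CPM. The 7 proliferation markers summed to 104 to 118, 121 to 133 and 215 to 248 CPM. At day 12, 5 of 7 were called higher, against 13% of all tested genes. Of 6 macrophage and leukocyte markers only Cd68 and Cd14 reached 1 CPM, with sums of 25.7 to 32.6, 41.5 to 47.6 and 28.2 to 32.1 CPM, and the 4 endothelial markers, none at 1 CPM, summed to 0.282 to 1.47 CPM over all libraries. Mesothelial markers summed to 1.79 to 2.25 CPM at days 0 and 1 and 23.4 to 38.3 CPM at day 12. Msln alone made the rise, with means of 0.628, 0.870 and 29.3 CPM at days 0, 1 and 12. Krt19 had 1.02, 0.636 and 1.07 CPM, and Lrrn4, Upk3b and Wt1 stayed under 1 CPM. Muscle and cartilage markers of the ear summed to 268 to 327, 264 to 299 and 234 to 298 CPM. The part of these cells in the members' changes was not tested. Library totals were 92387376 to 133270973 counts at day 0, 74430465 to 105322757 at day 1 and 64648178 to 91338649 at day 12, so that every day 12 library was shallower than every day 0 library while day 1 overlapped both. The part of depth in the results was not tested. The 9 genes took 0.144 to 0.155%, 0.197 to 0.205% and 0.189 to 0.202% of the counts, and the least covered gene in any library still had 532 counts. In the shallowest library a gene with a count of 0 could still have been present at up to 0.0428 CPM, counting error alone considered.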

How the data were processed

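Per the submitters' processing notes and the study's methods, the authors aligned RNA-seq reads to mouse build mm10 with TopHat2 2.0.13 and Bowtie2 2.2.1 and deposited raw read counts per gene made with HTSeq, whose strand setting is not given in the sources used here. They also deposited regularized log2 values and DESeq2 tables of mean scaled counts, log2 fold changes, standard errors, test scores and p-values, none of which were used. The 15 libraries (5 per group) were grouped by their labels. Genes were filtered with filterByExpr (minimum count 10), scaled by TMM and tested with the quasi-likelihood test of edgeR 4.0.16 (R 4.3.3), all libraries in 1 fit without covariates, with Benjamini-Hochberg adjustment over 14293 genes; DESeq2 1.42.0 served as an alternative. A call needed a fold change of more than 1.5 besides an adjusted p below 0.05. Standard errors (SE) were computed by dividing the log2 fold change by the root of the F value. The coefficient of variation between libraries was 5.25%. Coordinates, transcript lengths (APPRIS principal) and exon overlaps came from GENCODE M21 (GRCm38) and promoters from RefSeq; all 9 members matched. The script was tested on simulated counts. The members and the gene lists were chosen with earlier results of these data known. All members were named, and of each other list the 3 genes of at least 1 CPM with the largest absolute log2 fold change at day 12, beside any NADPH producer (2 listed genes are not reported here and were left out of their lists); for Rpia and Idh1, the members with the largest change in each direction at day 12, the 5 genes with the most similar levels were named. The alternatives were other scalings (total counts, DESeq2 size factors, 3 reference genes), filters, a replicate block, the series of library numbers, no fold limit, leaving out each library and other transcript lengths.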

Additional observations from a re-analysis of the deposited data

Results flagged for a closer look

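Of 192 groups of 5 values checked, over 64 genes, 6 held a library whose gap to the nearest other value exceeded 0.71 of the group's range, where chance gives about 1 in 20. Among the 27 groups of the 9 members, only Tkt at day 0 did, with replicate 1 at 344 CPM and the others at 329 to 331 CPM. The other 5 were Me3 at day 0 replicate 2 (6.52 CPM, others 4.57 to 4.86), Srxn1 at day 12 replicate 5 (137 CPM), Slc7a11 at day 12 replicate 4 (22.4 CPM, below 24.2 to 24.7), Osgin1 at day 12 replicate 2 (15.1 CPM) and Fabp4 at day 0 replicate 3 (713 CPM, below 835 to 873).

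The direct test of day 12 against day 1 (edgeR, with the limits on adjusted p and fold change given above) called 27 of the 64 genes. Over all tested genes it called 10.6% higher and 8.53% lower. Many of the 64 had been picked for the size of their change at day 12, so their share is not comparable. Pgd was the only member among the 27, at a log2 difference of -0.59. Among other sugar phosphate and NADPH enzymes, Prps1 differed by -1.05 and Aldh1l1 by -0.64, and Me3 by 0.66, Nnt by 1.00 and Aldh1l2 by 0.61. Among NRF2 target genes Nqo1 differed by -1.51, Hmox1 by -1.65, Gclc by -1.03, Gclm by -1.28, Srxn1 by -1.41 and Osgin1 by -1.11. In sterol synthesis, Sqle differed by 0.73. In sugar transport and glycolysis, Slc2a3 differed by -0.77, Pfkp by -0.62 and Slc37a2 by -1.30. Among markers, Adipoq differed by -1.28, Cidec by 1.03, Pdgfrb by 0.69, Ly6a by -1.27, Dlk1 by -1.02, Mki67 by 1.95, Ccnb1 by 1.26, Mcm5 by 1.75, Cd68 by -1.0, Msln by 5.09 and Acan by -1.10.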

How the results depend on the processing

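All 9 members kept their direction at day 1 and day 12 against day 0 under each of 25 alternatives. Scaling by total counts moved the median log2 fold change of all genes to 0.205 at day 12 against day 0 and to 0.182 at day 12 against day 1, and scaling to reference genes moved it to -0.107 at day 1 against day 0 and to 0.163 at day 12 against day 1. The share of calls that were lower was 55.6% at day 12 and 44.7% for day 12 against day 1, and became 35.9% and 27.3% with total counts; at day 1 it was 63.5% and became 75.8% with reference genes, which gave 29% for day 12 against day 1. With total counts 2982 genes and 1 member, Idh1, were called higher at day 12. Keeping only genes of at least 10 CPM gave 418 higher and 745 lower at day 1, 636 and 1053 at day 12, and 409 and 485 for day 12 against day 1. Without the fold limit these were 5049 and 5177, 5608 and 5342, and 4908 and 4690, with 6 members higher at day 1, 6 higher and 3 lower at day 12, and 4 lower at day 12 against day 1. Members called lower at day 1 numbered 1 in the larger library series (11 libraries) and 1 to 3 when each library was left out, Rpe being lost without replicate 4 or 5 of day 0 or replicate 1 of day 1 and H6pd being added without replicate 2 of day 1. Members called lower at day 12 against day 1 numbered 0 with total counts, reference genes, no filter, genes of at least 10 CPM, the library series as a covariate and the larger series, and 0 to 1 when each library was left out, Pgd being lost without day 1 replicate 4 or 5 or day 12 replicate 1, 3 or 4. The smaller series held 4 libraries. Signs changed for these values. With reference genes, day 1 values were -0.065 for Slc37a4, -0.057 for Adipoq and -0.043 for Col2a1, and with genes of at least 10 CPM they were -0.013 for Slc37a4 and -0.0046 for Adipoq. At day 12, Mthfd1l was 0.082, Srxn1 0.15 and Keap1 0.096 with total counts, and Srxn1 0.015 with reference genes. Nqo1 at day 12 was -0.0068 with DESeq2 size factors, -0.017 with genes of at least 10 CPM, -0.0058 in DESeq2, and -0.030 to 0.044 with each library left out; Gclc was -0.0090 to 0.040. For day 12 against day 1, G6pdx, Pgls and Idh1 were 0.12, 0.10 and 0.14 with total counts and 0.10, 0.081 and 0.12 with reference genes. Whether replicate numbers pair libraries was not settled. Over 15 pairs of equal number the correlation of deviations was weak, at -0.0255 to 0.0436. Yet 10 of 15 libraries correlated best with a library of their own number in another group. With the replicate block, 1099 genes were called higher and 1912 lower at day 1, 1851 and 2326 at day 12, and 1504 and 1214 for day 12 against day 1, and the members called were as without it in number. The cause of these changes was not tested. The members had at least 532 counts in every library.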

Other observations

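Other tested genes that were listed with the NADPH producers are given here as values. Glud1, mitochondrial glutamate dehydrogenase, had means of 231, 291 and 255 CPM at days 0, 1 and 12 (log2 fold changes 0.33 and 0.14, both past edgeR's adjusted p and under the fold limit). In the folate cycle Mthfd1 had log2 fold changes of -0.36 and -0.23, Mthfd2 -0.11 and 0.12, and Mthfd1l -0.05 and -0.11. The mitochondrial malic enzyme Me3 was low, at 5.05, 4.17 and 6.61 CPM. The reference genes of the study's qPCR had log2 fold changes at day 1 and day 12 of 0.18 and -0.25 (Hprt), -0.04 and -0.27 (Tbp), and 0.14 and 0.35 (Ppia). Of Tbp, 19.0% of the exon bases lie in other genes.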
